A study of Mus musculus with 6 samples.

Results

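Forkhead transcription factors were followed at the RNA and at the chromatin level in mouse neural stem cells. The members were the 44 protein-coding genes named Foxa to Foxs with a number in GENCODE vM21, out of 22028 protein-coding genes, and each of the 44 had a row in the count files. NSC came from wild-type embryos. NSC Bmi1Over came from embryos of the same stage that carried both STOPFloxBmi1 and NestinCre, so that the extra Bmi1 was driven in cells with Nestin promoter activity. Both kinds of culture were isolated from the subventricular zone of the cerebral hemispheres at E16.5 and grown with EGF and FGF. RNASeq covered 2 biologically independent cultures of each kind, and H3K27me3 ChIPSeq was used from 1 library of each kind. The mGIC samples were not analysed here.

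Forkhead (Fox) proteins bind DNA through a shared winged-helix domain and fall into lettered subfamilies. FoxJ1 switches on the genes of motile cilia, FoxM1 drives genes of mitosis, and the FoxO factors are held in the cytoplasm when PI3K and Akt are active and maintain quiescent stem cells. Many others, such as FoxA, FoxC, FoxD, FoxF and FoxL, specify endoderm, mesoderm, neural crest or the gonad and are normally silent in forebrain progenitors. H3K27me3 is the repressive histone mark laid down by Polycomb repressive complex PRC2, and Bmi1 belongs to PRC1, the complex that recognises it.

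The promoters of 5 members show the contrast that the data turn on. The sequences are RefSeq promoters of build GRCm38.p6, 300 bases long, running from 250 bases before to 50 bases after the start site, and CpG dinucleotides are in capitals. Foxf2 and Foxd1, at chr13:31625566-31625865 and chr13:98353995-98354294 on the plus strand, lay inside 2 of the 5 widest H3K27me3 domains of any Fox gene and gave almost no reads. Foxc1, the chromosomal neighbour of Foxf2 at chr13:31806396-31806695 on the plus strand, had no peak and was transcribed. Foxk2, at chr11:121259737-121260036 on the plus strand, was among the most highly expressed Fox genes. Foxn1, at chr11:78386559-78386858 on the minus strand, had neither a peak nor a read.
Foxf2: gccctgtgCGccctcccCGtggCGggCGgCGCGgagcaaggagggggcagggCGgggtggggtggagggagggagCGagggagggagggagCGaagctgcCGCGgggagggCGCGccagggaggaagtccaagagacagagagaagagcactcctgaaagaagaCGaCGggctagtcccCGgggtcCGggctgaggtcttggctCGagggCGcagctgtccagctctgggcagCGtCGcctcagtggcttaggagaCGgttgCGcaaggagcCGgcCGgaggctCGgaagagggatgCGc
Foxd1: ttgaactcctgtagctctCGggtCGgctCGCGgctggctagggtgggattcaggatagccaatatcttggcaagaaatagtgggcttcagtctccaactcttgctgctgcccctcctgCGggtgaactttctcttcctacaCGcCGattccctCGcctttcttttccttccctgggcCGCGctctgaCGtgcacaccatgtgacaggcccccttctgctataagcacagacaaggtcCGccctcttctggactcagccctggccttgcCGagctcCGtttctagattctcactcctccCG
Foxc1: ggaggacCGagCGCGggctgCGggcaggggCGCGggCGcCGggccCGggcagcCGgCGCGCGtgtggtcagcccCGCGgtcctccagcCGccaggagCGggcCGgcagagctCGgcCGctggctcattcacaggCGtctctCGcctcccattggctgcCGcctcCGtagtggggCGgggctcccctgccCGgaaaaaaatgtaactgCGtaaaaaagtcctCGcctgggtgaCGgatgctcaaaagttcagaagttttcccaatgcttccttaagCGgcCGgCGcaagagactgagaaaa
Foxk2: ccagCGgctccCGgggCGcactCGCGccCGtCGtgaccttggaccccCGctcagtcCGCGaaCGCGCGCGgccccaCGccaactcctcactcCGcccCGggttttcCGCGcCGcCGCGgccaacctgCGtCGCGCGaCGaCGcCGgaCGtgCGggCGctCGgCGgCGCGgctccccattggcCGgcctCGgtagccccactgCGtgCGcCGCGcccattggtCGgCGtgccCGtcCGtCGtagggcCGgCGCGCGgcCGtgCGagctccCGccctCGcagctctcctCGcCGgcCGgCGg
Foxn1: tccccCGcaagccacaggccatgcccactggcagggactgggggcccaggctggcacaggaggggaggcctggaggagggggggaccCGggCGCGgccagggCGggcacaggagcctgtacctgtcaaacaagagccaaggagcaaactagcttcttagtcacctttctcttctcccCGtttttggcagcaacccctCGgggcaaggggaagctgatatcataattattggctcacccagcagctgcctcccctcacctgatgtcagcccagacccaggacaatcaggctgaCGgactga
These windows held 27 CpG for Foxf2, 15 for Foxd1, 32 for Foxc1, 59 for Foxk2 and 8 for Foxn1. The unmarked Foxk2 window was thus the richest of the 5 and the unmarked Foxn1 window the poorest.

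Fox promoters carried H3K27me3 more often than promoters at large. A deposited broad peak lay within 5 kb of an annotated start site of 23 of the 44 genes (52.3%), against 8.89% of all protein-coding genes. In NSC Bmi1Over the mark was called at 21 of 44 (47.7%), against 4.44%. The 21 genes of NSC Bmi1Over were all among the 23 of NSC. They included every member of the Foxb, Foxd, Foxe, Foxf and Foxl groups, both Foxa1 and Foxa2, and Foxc2, Foxi3, Foxn4, Foxo6, Foxp2 and Foxq1. With 1 library per condition these shares have no replicate error and no difference between the conditions was tested and the peak files give no read depth.

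No member of the Foxj, Foxk or Foxr groups and neither Foxm1, Foxh1 nor Foxs1 had a promoter peak in either list. Within the FoxO group Foxo6 was marked, while Foxo1, Foxo3 and Foxo4 were not. Within the FoxP group only Foxp2 was marked, and within the FoxN group only Foxn4, a factor of retinal and spinal interneuron progenitors. Foxo4 and Foxo1 came close to the limit without meeting it, with the nearest NSC peak 5307 bp from Foxo4 and 7240 bp from Foxo1. On the other side of that limit, the nearest NSC Bmi1Over peak to a start site of Foxp2 was 4679 bp away.

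Foxa3 and Foxi2 were the 2 genes marked in NSC alone, where 4.7% of all protein-coding genes were. Foxa3, a hepatic and endodermal factor, had a 1242-bp peak at chr7:19022470-19023711 that spanned its start site, with a fold enrichment of 4.31. Foxi2 had a 1106-bp peak at chr7:135410427-135411532, 119 bp from its start site, with a fold enrichment of 4.14. Both were short and weak peaks next to those described below. Foxa3 gave 1 read over the 4 RNASeq libraries and Foxi2 none, so the missing peak had no counterpart at the RNA level that this depth could show. With the fold enrichment required to be at least 5, no gene was marked in NSC alone, and with peaks of at least 1000 bp there were 6.

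The marked Fox genes included some of the widest H3K27me3 domains of NSC. Of the 152 NSC peaks of at least 10 kb, 12 (7.89%) lay at Fox promoters. They spanned the start sites of 12 Fox genes and came within 5 kb of that of Foxl1. The widest was at Foxa2, a regulator of endoderm and floor plate, and measured 28419 bp at chr2:148026547-148054965 with a fold enrichment of 8.28. It ranked 16 by length among all NSC peaks. Foxa1, its close relative, lay in a domain of 24103 bp at chr12:57531462-57555564. The domain at Foxb1, a factor of diencephalon and spinal cord, measured 22504 bp at chr9:69752474-69774977. Those at Foxd1, a factor of kidney stroma and ventral diencephalon, and at Foxf2, a factor of gut and craniofacial mesenchyme, measured 22332 bp at chr13:98348664-98370995 and 20176 bp at chr13:31612035-31632210.

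The other domains of at least 10 kb lay at Foxd3, Foxl2, Foxe1, Foxb2, Foxf1 and Foxd4 and measured from 18154 bp at Foxd3 down to 10388 bp at Foxd4. The domain at Foxc2 measured 10596 bp and ended 3950 bp from the start site of Foxl1, which lay in a peak of its own of 6499 bp. Foxd2 fell just short with a widest peak of 9362 bp, followed by Foxi3 with 6764 bp, Foxq1 with 5141 bp, Foxn4 with 4614 bp and Foxe3 with 3489 bp. Fold enrichment over the 12 domains of at least 10 kb ran from 7.04 at Foxb1 to 9.56 at Foxd1. The median over all NSC peaks was 4.06, but their median length was 355 bp. Fold enrichment of other wide domains was not summarised, so these values do not set Fox domains apart.

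In the NSC Bmi1Over list the same regions held shorter peaks. By the study's methods the ChIPSeq libraries differed in read number, with one NSC library deeper than either NSC Bmi1Over library, and the weakest libraries were set aside after checks that included read number. The peak files do not name the library that each came from. The part of depth in the number, length and coverage of peaks, here and in the shares marked, was not tested. That list held 9 peaks of at least 10 kb in total and none at a Fox gene, where the widest was 7668 bp at Foxl2. Over the Foxa2 domain lay 14 NSC Bmi1Over peaks that covered 78% of it. The Foxa1 domain held 13 peaks covering 64%, and the Foxb1 domain 19 peaks covering 53.8%. At Foxd1 9 peaks covered 81.4%, and at Foxf2 10 peaks covered 62.5%. Over the 12 domains the median covered was 68.6%, with a range of 53.8% to 82.1%, beside 74.6% over all 152 domains. These values did not set Fox domains apart from other wide domains.

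The same difference held at the scale of the promoter window. All 21 genes marked in both lists had a smaller part of the window covered in NSC Bmi1Over, with medians of 96.4% in NSC and 57.9% in NSC Bmi1Over. A start site lay inside a peak at 19 of the 23 genes marked in NSC and at 7 of the 21 marked in NSC Bmi1Over. More separate peaks were called in NSC Bmi1Over at 17 of the 21. These counts, and that of the highest fold enrichment below, were made for Fox genes alone. They do not show whether other marked promoters differed in the same way. Counted once each, the promoter peaks of Fox genes numbered 44 in NSC with a median length of 1174 bp, and 104 in NSC Bmi1Over with a median of 761 bp. Together they spanned 274008 bp and 129472 bp, a ratio of 2.12, where all peaks gave 2.4. Median fold enrichment of these promoter peaks was 4.87 in NSC and 5.13 in NSC Bmi1Over, beside 4.06 and 4.8 over all peaks. Gene by gene, however, the highest fold enrichment in the window was higher in NSC Bmi1Over at only 2 of the 21 genes marked in both, and at Foxa2 it was 8.28 in NSC and 6.65 in NSC Bmi1Over. The plot of window coverage shows the genes in both lists.

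**Figure D1:**
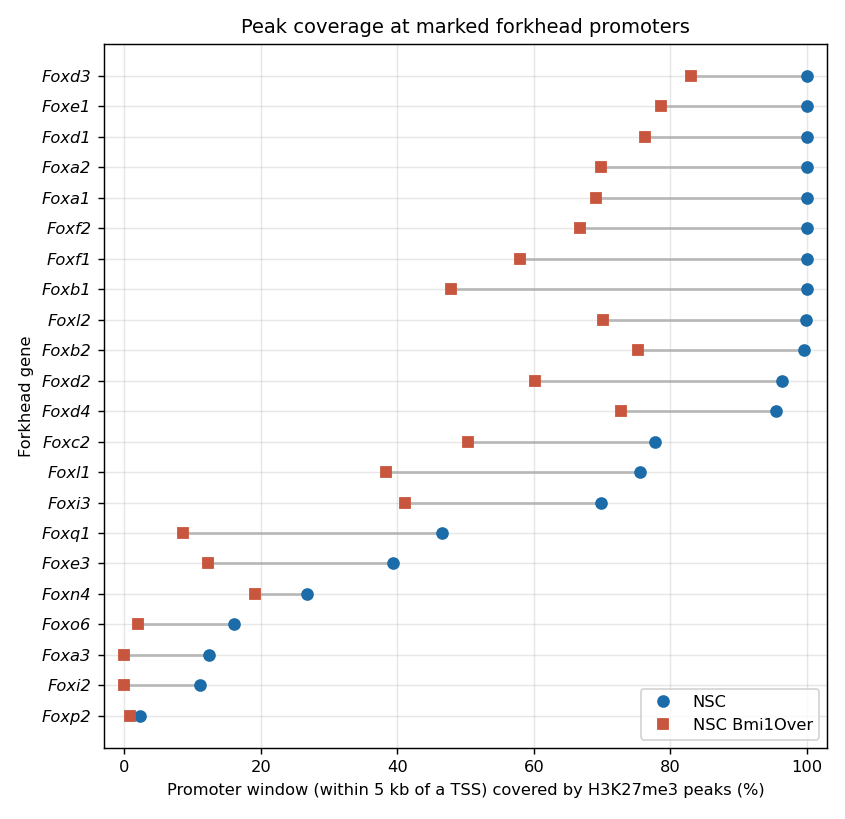
Percent of the promoter window (within 5 kb of any start site) covered by H3K27me3 peaks, for Fox genes marked in NSC, with circles for NSC and squares for NSC Bmi1Over, 1 ChIPSeq library each. The square lies left of the circle for every gene shown, and Foxa3 and Foxi2 stand at 0 in NSC Bmi1Over.

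Fox genes that lie side by side did not all carry the mark. On chromosome 13, Foxq1, Foxf2 and Foxc1 follow each other with gaps of 64839 and 175229 bp. Foxq1 and Foxf2 were marked in both lists, while the closest peak to the Foxc1 start site lay at 174423 bp in NSC and at 175494 bp in NSC Bmi1Over. Foxf2 gave 2 reads in all and Foxq1 1 read. In contrast, Foxc1, a factor of meninges and vascular mesenchyme, had 10.8 and 10.7 CPM in NSC and 11.7 and 11.3 CPM in NSC Bmi1Over. CPM are counts per 1000000 reads of the TMM-normalised library size. On the Foxq1 exons, 66.1% of the bases also belong to a gene on the opposite strand, and reads in such bases were counted for neither gene. On chromosome 8, by contrast, Foxf1, Foxc2 and Foxl1, spaced by 28026 and 9044 bp, were all marked. So were Foxd2 and Foxe3 on chromosome 4, spaced by 16273 bp.

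**Figure D2:**
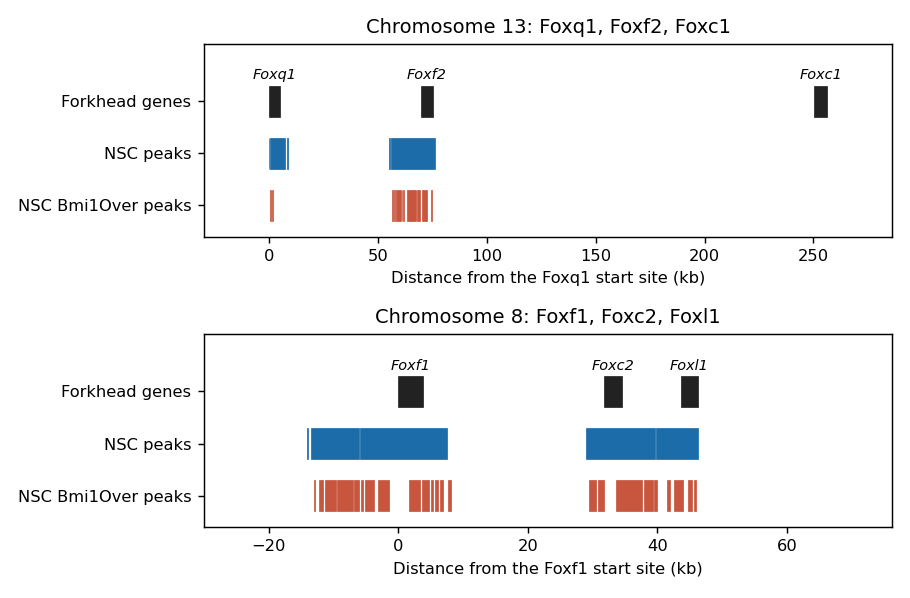
H3K27me3 peaks over the Fox gene clusters of chromosomes 13 (top) and 8 (bottom), as distance in kb from the start site of Foxq1 or Foxf1, with genes in black, NSC peaks in blue and NSC Bmi1Over peaks in red. Foxc1 has no peak in either list, while the peaks over Foxf2 and over Foxf1, Foxc2 and Foxl1 are wide in NSC and split in NSC Bmi1Over.

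The marked and the unmarked Fox genes differed in gene structure, a feature that the choice of members did not use. A single exon block made up 12 of the 23 genes marked in NSC (52.2%) and 2 of the 21 unmarked genes (9.52%), which were Foxs1 and Foxc1. Over all protein-coding genes these shares were 5.41% of the marked and 6.88% of the unmarked. Median gene span was 3759 bp for marked and 25453 bp for unmarked Fox genes, where the medians over all protein-coding genes were 24704 bp for marked and 16848 bp for unmarked, the opposite order. The compact marked genes included Foxe3 with 867 bp and Foxd2 with 2592 bp. Of the 23 marked genes 19 spanned under 10 kb, and the longest was Foxp2 with 540629 bp.

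In the window of 500 bp on either side of the 5′-most start site, the median ratio of observed to expected CpG was 0.759 for marked and 0.801 for unmarked Fox genes by the NSC list, but 0.763 and 0.721 by the NSC Bmi1Over list. With marks taken within 1 kb that list gave 0.718 and 0.801, so the order depended on the window used. All protein-coding genes had medians of 0.631 and 0.536. A ratio over 0.6 was found at 16 of 23 marked and 15 of 21 unmarked Fox genes. RefSeq promoter windows were matched for 28 of the 44 genes, 33 windows in all, with a median of 22 CpG against 14 over the 20150 windows of all protein-coding genes. The forkhead core motif TGTTTAC, searched on both strands, occurred in 1 of the 33 windows (3.03%), that of Foxa1, and in 2.96% of all windows.

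At the RNA level the Fox genes fell into 4 classes. A mean of at least 1 CPM over the 4 libraries was reached by 19 genes, and 3 more (Foxa1, Foxd2 and Foxp3) were lower but passed the filter of the test. Another 9 gave between 1 and 17 reads in all and were not tested, namely Foxa2, Foxa3, Foxc2, Foxd1, Foxf1, Foxf2, Foxh1, Foxq1 and Foxs1. The remaining 13 gave no read in any library, which allows up to 0.0951 and 0.119 CPM in the NSC libraries and up to 0.171 and 0.0525 CPM in the NSC Bmi1Over libraries, counting error only. These 13 were Foxb2, Foxd3, Foxd4, Foxe1, Foxe3, Foxi1, Foxi2, Foxi3, Foxl1, Foxl2, Foxn1, Foxn4 and Foxr1. Depth differed between the libraries, with 29325893 and 24578802 counted reads in NSC and 18112100 and 61353076 in NSC Bmi1Over. Cultures are bulk samples, so fewer cells of a type and less RNA per cell cannot be told apart.

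Most marked Fox genes were silent or nearly so. Of the 13 genes with no read, 10 were marked in NSC, and of the 9 with a few reads, 7 were. Of the 19 genes that averaged 1 CPM or more, only 4 were marked, among them Foxo6, Foxb1 and Foxp2. In units of RPKM (CPM per kilobase of merged exon), the median of the marked genes was 0 in both NSC cultures and that of the unmarked genes 1.91 and 1.83. In NSC Bmi1Over, with its own peak list, the medians were 0 and 0.00691 for marked and 1.56 and 1.64 for unmarked genes. With a window of 1 kb the difference of these medians, 1.56 and 1.63 RPKM, was 0.598 and 0.966 RPKM. For all protein-coding genes the medians in the NSC cultures were 0.101 and 0.0991 for those marked in NSC and 1.31 and 1.3 for the unmarked. In NSC replicate 1, 15 of 23 marked and 3 of 21 unmarked Fox genes gave no read. Over all protein-coding genes these were 451 of 1950 marked and 5669 of 19891 unmarked. Absence of the mark did not imply expression, since Foxi1, Foxn1 and Foxr1 had neither. Genes are not replicates, and no test was made of these medians.

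**Figure D3:**
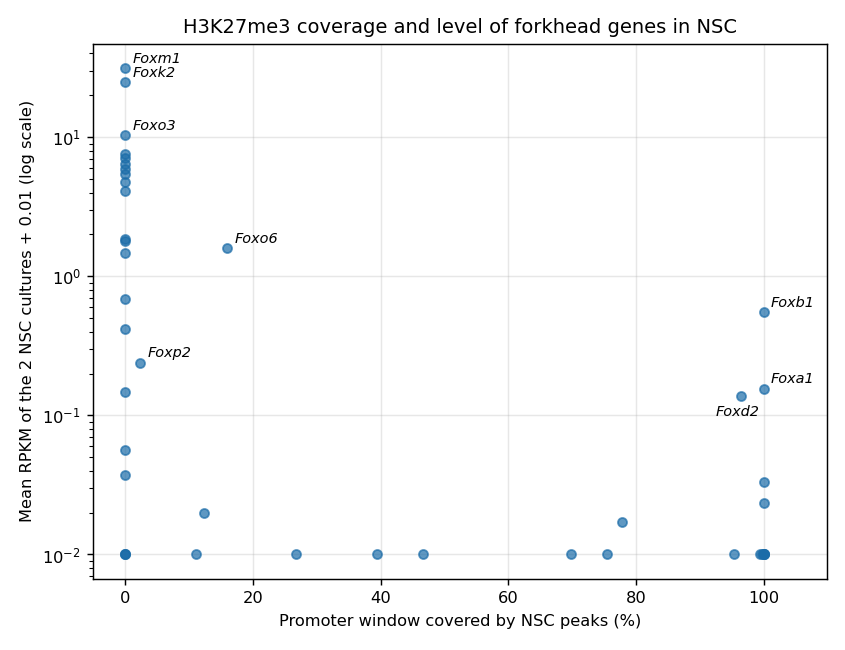
Mean RPKM of the 2 NSC cultures, with 0.01 added and on a log axis, against the percent of the promoter window covered by NSC peaks, 1 point for each Fox gene shown. Foxm1, Foxk2 and Foxo3 stand highest at no coverage, and most genes with coverage lie at the bottom.

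Foxo6, a neuronal FoxO factor, had 1.58 ± 1.16 RPKM (SD, n = 2) in NSC and 3 NSC peaks, the widest of 1085 bp. In NSC Bmi1Over its window held a single peak of 200 bp, which overlapped none of the NSC peaks. Foxb1 alone averaged 1 CPM or more inside a domain of at least 10 kb, and 8 NSC Bmi1Over peaks lay in its window. Foxp2, the speech-related factor of striatal and cortical neurons, has several start sites and had 4 NSC peaks of 279 to 434 bp and 2 NSC Bmi1Over peaks, none on a start site. The marks at Foxo6 and Foxp2 were thus short and covered 16% and 2.3% of their windows in NSC.

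Among the genes of at least 1 CPM, levels per length in NSC ran from 31.3 RPKM at Foxm1 to 0.229 RPKM at Foxp2. Foxm1 had 31.3 ± 1.54 RPKM (SD, n = 2 for this and the following means), Foxk2 followed with 24.9 ± 0.221 and then Foxo3 with 10.4 ± 1.36. These 3 differed from their neighbours by more than their SD. Foxn2 and Foxk1 followed with 7.56 ± 0.258 and 7.05 ± 0.0938 RPKM. Foxj2, Foxo4, Foxp4, Foxj3 and Foxj1 lay between 6.39 and 4.08 RPKM. Foxc1 with 1.84 ± 0.0113, Foxo1 with 1.79 ± 0.163, Foxo6 with 1.58 ± 1.16 and Foxn3 with 1.47 ± 0.421 RPKM could not be ordered beyond their SD. Foxp1, Foxb1, Foxr2 and Foxp2 were below 1 RPKM.

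**Figure D4:**
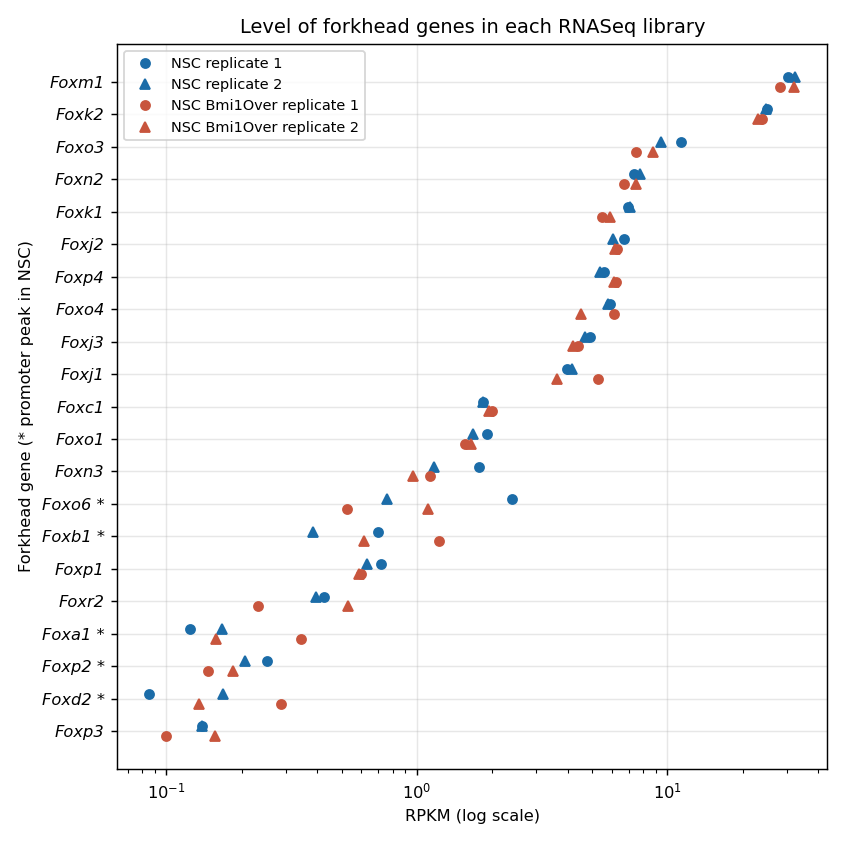
RPKM of tested Fox genes in each RNASeq library on a log axis, ordered by mean, with circles for replicate 1 and triangles for replicate 2, blue for NSC and red for NSC Bmi1Over. Foxm1 and Foxk2 lie above 20 RPKM in all 4 libraries, and the NSC replicates of Foxo6 lie far apart.

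The comparison of NSC Bmi1Over with NSC asked whether the labelled excess of Bmi1 went with other Fox levels. Bmi1 itself had 128.4 ± 6.93 CPM in NSC and 115.6 ± 4.28 CPM in NSC Bmi1Over (SD, n = 2), with an adjusted p of 0.463 in edgeR's quasi-likelihood test, so the label was not visible in these counts and every direction below is that of the libraries labelled NSC Bmi1Over. None of the 22 Fox genes tested was called at an adjusted p under 0.05, where 2.15% of 15521 genes were called (2.03% higher, 0.122% lower). Of all genes 315 were called higher and 19 lower, or 346 and 191 with libraries scaled by their size alone. At an unadjusted p under 0.05 there were 3, Foxk1, Foxn3 and Foxo3, against 24.2% of all genes, and DESeq2 called none of the 19 for which it gave an adjusted p. The median log2 fold change was -0.09 over the 22 and -0.01 over all genes, and 7 of the 22 were above 0. With 2 cultures in each group an exact permutation test of 1 gene cannot give a two-sided p below 0.333.

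The CPM of the groups did not overlap at 10 of the 22 genes, against 59% of all tested genes. In 8 of these NSC Bmi1Over was lower, namely Foxj3, Foxk1, Foxk2, Foxn3, Foxo1, Foxo3, Foxp1 and Foxp2 (30% of all genes), and in 2 it was higher, Foxc1 and Foxp4 (29%). The share of counted reads, before TMM scaling, that fell on Fox genes was 0.0805% and 0.0749% in NSC and 0.0634% and 0.0643% in NSC Bmi1Over. The share of unmapped reads went the other way, at 11.2% and 13.7% in NSC and 16.2% and 17.6% in NSC Bmi1Over. Its part in these values was not tested.

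**Figure D5:**
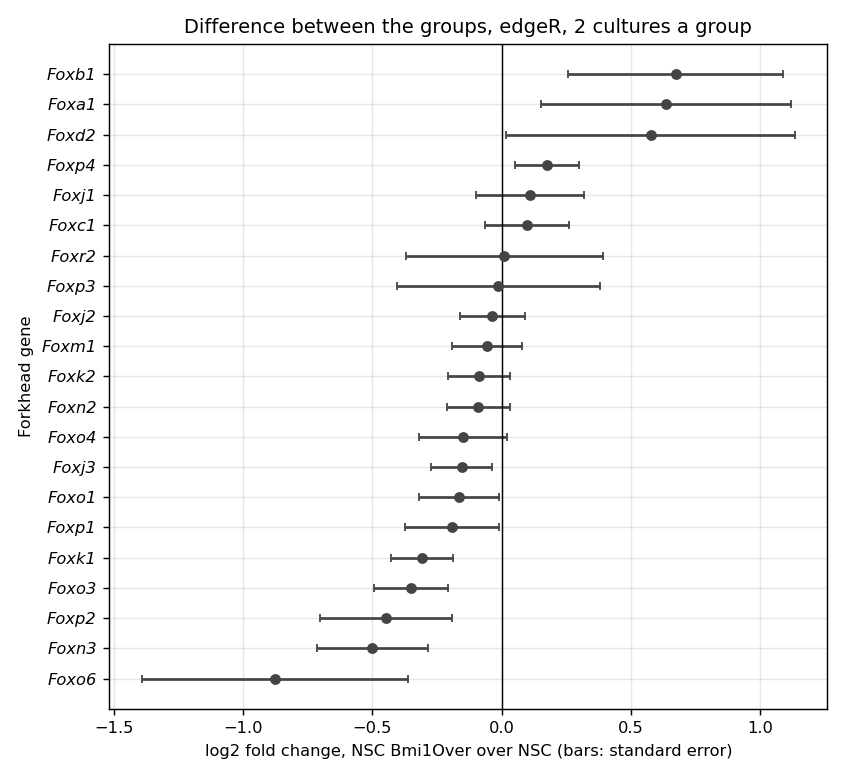
Log2 fold change of NSC Bmi1Over over NSC for tested Fox genes, from edgeR with 2 cultures in each group and bars of 1 standard error. Values run from -0.88 at Foxo6 to 0.67 at Foxb1, and no gene was called.

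The FoxO factors carry insulin and growth factor signals to the nucleus. Foxo3 had 85.7 and 71.2 CPM in NSC and 56.7 and 66.2 CPM in NSC Bmi1Over. Both NSC Bmi1Over cultures lay under both NSC cultures, with a log2 fold change of -0.35 (SE 0.14, adjusted p = 0.183 in edgeR), or -0.21 (adjusted p = 0.925) without NSC replicate 1. Foxo1 gave 16.5 and 14.5 CPM in NSC and 13.5 and 14.2 CPM in NSC Bmi1Over. The groups lay apart by less than the distance between the NSC cultures. Foxo4, on the X chromosome, gave 20.6 and 20.3 CPM against 21.3 and 15.8 CPM, with NSC Bmi1Over replicate 2 lowest and replicate 1 highest. Foxo6 gave 6.27 and 1.98 CPM in NSC and 1.37 and 2.90 CPM in NSC Bmi1Over. The first NSC culture alone was high, and the log2 fold change of -0.88 (SE 0.51, adjusted p = 0.319) became 0.18 without it and -1.48 (adjusted p = 0.00131) without the second.

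Of 22 FoxO targets 18 were tested, none was called, 6 were above 0 and the median log2 fold change was -0.27, which became -0.10 without NSC replicate 1 and -0.09 without NSC Bmi1Over replicate 2. The 2 most abundant were Insr, the insulin receptor, with 174 and 226 CPM in NSC and 235 and 283 CPM in NSC Bmi1Over, and Sesn3, a sestrin, with 235 and 172 CPM against 193 and 137 CPM. At an unadjusted p under 0.05 there were 4 of the 18, a smaller share than the 24.2% of all genes, and they are named here after their values were seen. All 4 lay below 0. Fbxo32, a ubiquitin ligase of muscle atrophy, had a log2 fold change of -0.98 (SE 0.28, adjusted p = 0.0901), Txnip, the thioredoxin inhibitor, -1.12 and Ccng2, a cyclin of cell cycle exit, -0.50. Bnip3, a mitophagy receptor, had 54.2 and 18.8 CPM in NSC and 4.28 and 18.9 CPM in NSC Bmi1Over, so its groups overlapped. Without NSC replicate 2 these 4 were called, with log2 fold changes from -0.72 for Ccng2 to -2.16 for Bnip3, and Bnip3 was also called without NSC Bmi1Over replicate 2 (-3.09, adjusted p = 0.0451). Without NSC replicate 2, however, 1461 of all 16356 genes tested were called, and without NSC replicate 1 none of the 4 was, with Txnip at -0.40 (adjusted p = 0.885 in edgeR), Bnip3 at -0.64 (0.382), Ccng2 at -0.26 (0.902) and Fbxo32 at -0.73 (0.695).

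Of 21 genes that act on or with FoxO (PI3K, Akt and Sgk kinases, insulin pathway adaptors, cofactors and the FoxO genes), all were tested and none was called. Their median was -0.12 and 3 were above 0. Ywhab, an adaptor that binds phosphorylated FoxO, and Pik3r1, the regulatory subunit of PI3K, were the most abundant, with 291 and 301 CPM and 286 and 257 CPM in NSC against 287 and 269 CPM and 243 and 209 CPM in NSC Bmi1Over. At an unadjusted p under 0.05 there were 4 of the 21, Foxo3 among them, again a smaller share than the 24.2% of all genes. Igf1r, the receptor of insulin-like growth factor, had a log2 fold change of 0.51, whereas Irs1, its adaptor, had -0.35, or -0.08 (adjusted p = 0.78) with the 2 stranded columns summed. Without NSC Bmi1Over replicate 1 Igf1r was called (0.70, adjusted p = 0.0223 in edgeR), and without NSC Bmi1Over replicate 2 its value was 0.28 (adjusted p = 0.42).

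Foxm1, the factor of mitotic entry, gave 174 and 186 CPM in NSC and 162 and 184 CPM in NSC Bmi1Over. The groups overlapped, and the log2 fold change was -0.06 (SE 0.13, adjusted p = 0.815). Of 18 FoxM1 targets all were tested, none was called, 5 were above 0 and the median was -0.12. Top2a, a topoisomerase of dividing cells, gave 693 and 650 CPM in NSC and 659 and 549 CPM in NSC Bmi1Over. Ccnb1, a mitotic cyclin, gave 200 and 201 CPM against 181 and 167 CPM, with no overlap. Ccnb2 and the kinase Plk1, the 2 of the 18 with an unadjusted p under 0.05 (24.2% of all genes), had log2 fold changes of -0.37 and -0.28, and Ccnb2 was called without NSC Bmi1Over replicate 1 (-0.48, adjusted p = 0.038 in edgeR) and had -0.27 (adjusted p = 0.359) without NSC Bmi1Over replicate 2.

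Foxk1 and Foxk2, which repress autophagy genes and favour glycolysis, are widely expressed. Foxk1 gave 53.0 and 54.0 CPM in NSC and 41.4 and 44.9 CPM in NSC Bmi1Over. The groups lay apart by more than the spread of either, with a log2 fold change of -0.31 (SE 0.12, adjusted p = 0.167). Foxk2 gave 132 and 130 CPM against 125 and 121 CPM, a log2 fold change of -0.09 (adjusted p = 0.673). Both genes were lower in both NSC Bmi1Over cultures, and neither was called.

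Foxn3 is a repressor linked to the DNA damage checkpoint. Foxn3 gave 20.3 and 13.5 CPM in NSC and 13.02 and 11.1 CPM in NSC Bmi1Over, with a log2 fold change of -0.50 (SE 0.21, adjusted p = 0.199). The gap between the groups was much smaller than the gap between the NSC cultures, and without NSC replicate 2 the value was -0.77 (adjusted p = 0.0402), but -0.17 (adjusted p = 0.946) without NSC replicate 1. Foxn2 gave 54.3 and 56.96 CPM against 49.4 and 54.9 CPM, and its groups overlapped.

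The Groucho corepressors Tle1 to Tle4, which act with several families of transcription factors, were all tested and none was called, with 2 above 0. Tle4 gave 114 and 108 CPM in NSC and 130 and 109 CPM in NSC Bmi1Over, and Tle2 gave 56.6 and 91.9 CPM against 91.1 and 139 CPM, both with overlap. Tle1 gave 52.3 and 44.6 CPM in NSC and 31.4 and 35.6 CPM in NSC Bmi1Over, a log2 fold change of -0.53 (SE 0.14, adjusted p = 0.0766), named after its value was seen. Without NSC replicate 2 Tle1 was called (-0.64, adjusted p = 0.0445), and so was Tle2 (1.02, adjusted p = 0.000953), which was also called without NSC Bmi1Over replicate 1 (0.90, adjusted p = 0.0284). The value of Tle2 was 0.33 (adjusted p = 0.86) without NSC replicate 1 and 0.30 (adjusted p = 0.607) without NSC Bmi1Over replicate 2.

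The FoxP factors are repressors with roles in neurons, lung and immune cells. Foxp4, the most abundant of them, gave 27.5 and 26.4 CPM in NSC and 30.7 and 30.1 CPM in NSC Bmi1Over. It was 1 of 2 tested Fox genes with no overlap and a higher level in NSC Bmi1Over, with a log2 fold change of 0.17 (SE 0.12, adjusted p = 0.404). Foxp1 gave 9.89 and 8.70 CPM in NSC and 8.23 and 8.07 CPM in NSC Bmi1Over. Foxp2 gave 4.12 and 3.36 CPM against 2.40 and 3.01 CPM, a log2 fold change of -0.45 (SE 0.25), or -0.30 without NSC replicate 1. Foxp3, the regulatory T cell factor, gave between 0.457 and 0.718 CPM, and its exons overlap those of several neighbouring genes.

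Foxj1, the master regulator of motile cilia, gave 10.4 and 10.96 CPM in NSC and 13.8 and 9.54 CPM in NSC Bmi1Over. The NSC Bmi1Over cultures lay on either side of NSC, and the log2 fold change was 0.11. Of 20 genes of motile cilia 14 were tested, none was called, 10 were above 0 and the median was 0.39, the highest of the lists of more than 4 genes that were chosen around Fox factors. Rfx3, a cofactor of FoxJ1 and the most abundant, went the other way with 64.9 and 58.0 CPM in NSC and 57.1 and 54.1 CPM in NSC Bmi1Over. Ccdc39, a ruler protein of the axoneme, gave 9.16 and 7.63 CPM against 11.9 and 11.7 CPM. Hydin, Spag17, Tppp3, Rfx2 and Ccdc39, 5 of the 14, had an unadjusted p under 0.05, where 24.2% of all genes did, and were above 0, with adjusted p from edgeR between 0.101 for Rfx2 and 0.195 for Tppp3. Without NSC replicate 2 the median was 0.00 and Spag17, which rests on 1 to 24 reads a library, was called (adjusted p = 0.0261). Its log2 fold change of 2.05 became 0.05 (adjusted p = 0.893 in edgeR) with the 2 stranded columns summed.

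Markers of the cell types that carry motile cilia are given beside this. Of 6 ependymal markers 2 were tested, none was called, and their summed level was 2.19 to 2.33 CPM in NSC and 2.26 to 3.08 CPM in NSC Bmi1Over. Of 6 choroid plexus markers 2 were tested and both rose in NSC Bmi1Over. Folr1, a folate receptor, had a log2 fold change of 2.53 (adjusted p = 0.00908 in edgeR) and Aqp1, a water channel, 1.85 (adjusted p = 0.0484). Folr1 was called whichever culture was left out, and Aqp1 was not called without NSC replicate 1 (adjusted p = 0.144) or NSC Bmi1Over replicate 2 (0.224). The sum of the 6 was 1.81 to 1.86 CPM in NSC and 7.46 to 7.65 CPM in NSC Bmi1Over. Folr1 made up 0.982 and 0.791 CPM of it in NSC and 5.94 and 4.55 CPM in NSC Bmi1Over. Aqp1 made up 0.444 and 0.554 CPM against 1.31 and 2.12 CPM. Ttr, the defining marker, was between 0.0317 and 0.175 CPM and higher in NSC Bmi1Over. Kcnj13 was lower there, with 0.0634 and 0.158 CPM against 0.0571 and 0.0525 CPM. At Kl and Clic6 the groups overlapped. The part of ependymal and choroid plexus cells in the values of the cilia genes was not tested.

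The other members of the Foxj group varied little. Foxj2 gave 36.0 and 32.4 CPM in NSC and 33.7 and 33.0 CPM in NSC Bmi1Over, within the NSC range. Foxj3 gave 53.7 and 51.3 CPM against 48.4 and 46.0 CPM, with no overlap and a log2 fold change of -0.15 (SE 0.12, adjusted p = 0.438). Foxc1 had no overlap either, but its log2 fold change was 0.10 (SE 0.16, adjusted p = 0.733). It became -0.05 when libraries were scaled by their size alone, a choice that moved the median of all genes to -0.165.

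The lowest genes tested were mostly marked ones. Foxb1 gave 2.09 and 1.15 CPM in NSC and 3.66 and 1.84 CPM in NSC Bmi1Over, a log2 fold change of 0.67 (SE 0.42, adjusted p = 0.343). That value was 0.16 without NSC Bmi1Over replicate 1, 0.33 without NSC replicate 2, 1.15 without NSC Bmi1Over replicate 2 and 1.20 without NSC replicate 1. Foxa1 gave 0.412 and 0.554 CPM against 1.14 and 0.525 CPM, and Foxd2, a factor of paraxial mesoderm, 0.222 and 0.435 CPM against 0.743 and 0.350 CPM. In all 3 genes replicate 1 of NSC Bmi1Over was highest and the groups overlapped. Foxr2, an unmarked gene of the X chromosome, gave 1.36 and 1.27 CPM against 0.743 and 1.70 CPM. Foxd2os, the long noncoding RNA next to Foxd2, was the only 1 of 4 noncoding neighbours tested, with 1.39 and 2.77 CPM in NSC and 4.17 and 3.38 CPM in NSC Bmi1Over, a log2 fold change of 0.86 (adjusted p = 0.176), or 1.41 (adjusted p = 0.0156) without NSC replicate 2 and 0.43 (adjusted p = 0.909) without NSC replicate 1.

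Cell identity was checked against marker lists. The 10 neural stem cell markers, summed to 6281 to 7002 CPM in NSC and 6898 to 7152 CPM in NSC Bmi1Over, were all tested and none was called. The sum was led by Slc1a3, with a log2 fold change of 0.46, while 4 of the 10 were above 0 and the median was -0.17, with Sox2 and Fabp7 at -0.42 and Hes5 at -0.74. Of 6 neuronal markers tested Syt1 rose (2.18, adjusted p = 0.0428 in edgeR), while 2 of the 6 were above 0 and their median was -0.14. Of 6 astrocyte markers Aldh1l1 fell (-0.86, adjusted p = 0.044 in edgeR), while 2 of the 6 were above 0 and their median was -0.17. Slc1a2, the most abundant of them, had 0.39 (adjusted p = 0.223 in edgeR). Of 5 oligodendrocyte lineage markers none was called. Without NSC Bmi1Over replicate 2 neither Syt1 (adjusted p = 0.0713) nor Aldh1l1 (0.0897) was called, nor was Aldh1l1 without NSC replicate 1 (0.124). Markers of cells in which Foxc1, Foxf1 and Foxf2 are typical were near 0, with mesenchymal and meningeal markers summed to 1.489 to 1.503 CPM in NSC and 1.05 to 1.83 CPM in NSC Bmi1Over. Microglial markers summed to between 1.30 and 3.098 CPM and endothelial markers to between 2.66 and 5.53 CPM, with 1 and 2 genes tested and none called.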

How the data were processed

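RNASeq of 2 NSC and 2 NSC Bmi1Over cultures and H3K27me3 ChIPSeq of 1 library each were used. The authors trimmed reads with Trim Galore, aligned RNASeq reads with STAR to mm10 (GRCm38) and deposited unnormalised counts per gene. For ChIPSeq they aligned with Bowtie2 2.3.4 and called broad peaks per library with MACS2. The authors deposited each peak with its fold enrichment (a ratio), its −log10 p and q and a display score, which was not used here.

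Of 50686 gene identifiers 50462 were matched in GENCODE vM21. Unstranded counts were normalised with TMM, filtered with filterByExpr and tested with edgeR 4.0.16 (quasi-likelihood test, limma 3.58.1, R 4.3.3), with Benjamini-Hochberg adjustment over 15521 genes and a threshold of 0.05. The common biological coefficient of variation was 12.9%. CPM and RPKM were computed from the counts, which precede the authors' biotype filter, and from the TMM-normalised library sizes. A gene was marked where at least 1 bp of a peak lay up to 5 kb from one of its start sites. The calculations on counts and on peaks were tested on simulated data. Peaks and sequences were handled with python 3.11.15 and pandas 2.3.3.

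Members and gene lists were chosen with earlier results of these data known. Named genes were Fox genes averaging 1 CPM or more (values per library), those with a peak in 1 list, with the 5 widest NSC peaks, or marked and expressed, and of each list those called and the 2 most abundant. Other genes, among them those with an unadjusted p under 0.05 in edgeR and several cell type markers, were named after their values were seen. Some genes that enter the counts are not reported here by name. Alternatives were DESeq2 1.42.0, other scalings, filters and counting, a replicate block, each culture left out, and stricter promoter or peak limits.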

Additional observations from a re-analysis of the deposited data

How the results depend on the processing

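The number of Fox genes called was 0 and became 1 (Foxo6) with no filter beyond 1 read, 3 (Foxk1 and Foxn3 among them) with the replicate block, and 0 to 2 with each culture left out, which leaves 1 culture in a group that is assumed to vary like the other. Foxo6 had an adjusted p of 0.0127 with no filter. Without NSC replicate 2 the 2 called were Foxo6 (-1.48, adjusted p = 0.00131) and Foxn3 (-0.77, 0.0402). The number of all genes called, 334, became 537 with library size alone, 2356 with no filter, 3459 with the block, 1496 with DESeq2 and 176 to 2546 with each culture left out.

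Of 261 pairs of gene and setting 236 kept their direction and their side of the threshold, 3 kept their direction with no adjusted p from DESeq2, 7 passed the threshold and 15 changed sign, and 14 of the 22 genes kept their sign in each of the 11 or 12 settings in which they were tested. With library size alone Foxc1 became -0.05, Foxj1 -0.04 and Foxr2 -0.15. Foxr2 was -0.01 with no filter, -0.09 with the block and -0.04 with DESeq2, and Foxp3 was 0.23 with the stranded counts summed. With each culture left out the ranges were -0.17 to 0.37 for Foxj1, -0.12 to 0.04 for Foxj2, -0.15 to 0.03 for Foxm1, -0.37 to 0.06 for Foxo4, -1.61 to 0.18 for Foxo6, -0.47 to 0.18 for Foxp3 and -0.82 to 0.36 for Foxr2. Tle4, at 0.10, became -0.05 with library size alone and -0.03 to 0.22 with each culture left out. The cause was not tested.

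The labels give both groups replicates 1 and 2 without saying that a number marks a shared litter or day. The deviations of same-numbered cultures correlated at r = 0.169 across 15521 genes, so with 2 pairs the block describes a shared number only. With the replicate block Foxk1 was -0.31 (adjusted p = 0.0453) and Foxn3 -0.46 (0.0369).

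The numbers called of the lists, 0 in each, moved as follows. FoxO targets gave 4 with no filter, 6 with the block, 1 with DESeq2 and 0 to 4 with each culture left out. Genes acting on FoxO gave 2, 3, 1 and 0 to 1 in that order. Motile cilia genes gave 2 with no filter, 3 with the block and 0 to 1 with each culture left out. FoxM1 targets gave 2 with the block and 0 to 1 with each culture left out. Groucho genes gave 1 with library size alone, 2 with no filter, 2 with the block, 1 with DESeq2 and 0 to 2 with each culture left out. The noncoding neighbours gave 1 with no filter and 0 to 1 with each culture left out.

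The number of Fox genes marked in NSC alone, 2, was 5 with a window of 1 kb, 6 with peaks of at least 1000 bp, 0 with a fold enrichment of at least 5 and 4 with at least 500 bp covered. Over all protein-coding genes, 1958 were marked in NSC and 1277 with a −log10 q of at least 3, 871 with the length limit and 688 with the fold limit. For NSC Bmi1Over 977 became 342 with the length limit, 570 with the fold limit and 638 with 500 bp covered. The median level of unmarked minus marked Fox genes, in RPKM, became with the 1-kb window 1.75 in NSC replicate 2 and 0.598 and 0.966 in NSC Bmi1Over replicates 1 and 2. In CPM it was 16.5, 13.5, 13 and 11.1 in the 4 libraries. Folr1 was called in all settings, while Aqp1 and Syt1, close to the threshold, were not with DESeq2 size factors in edgeR (adjusted p = 0.0564 and 0.0517). Depth limits the genes with few reads, and 1 ChIPSeq library per condition limits every peak comparison.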

Other observations

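Peaks inside Fox genes but away from their promoters were found at 3 genes. Foxp2 had 19 such NSC peaks with a total of 10075 bp and 11 NSC Bmi1Over peaks with 3783 bp, of which 4 and 1 touched an exon. Foxp1, which had no promoter peak, had 5 NSC peaks of 3724 bp in total, the widest of 1865 bp, and 1 NSC Bmi1Over peak of 252 bp. Foxo6 had 4 NSC peaks of 1366 bp in total and no such peak in NSC Bmi1Over. These are values from 1 library per condition, and their difference was not tested.

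Foxd1, which was too low to be tested, gave 3 and 1 reads in NSC and 11 and 2 reads in NSC Bmi1Over. The 11 reads came from the library with the fewest counted reads, where they correspond to 0.628 CPM, while the other libraries lay between 0.035 and 0.0951 CPM. Foxd1 lay in a domain of 22332 bp in NSC, and in NSC Bmi1Over its start site was 44 bp from the nearest peak.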
